A study of Mus musculus with 6 samples.

Results

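The genes described here encode the proteins of the small ribosomal subunit of the cytosol. They were chosen by symbol among genes annotated as protein coding in GENCODE M21: Rps followed by a number, with an optional letter or copy number, together with Rpsa, Fau and Rps27l, and without kinases, mitochondrial proteins or pseudogenes. The rule gave 33 of the 25690 gene symbols of the series. The rule uses symbols and annotation alone, and the family was picked with earlier results of these data known. RNA had been sequenced from CD27SP NK cells, the immature NK cells that carry CD27 but not CD11b, sorted from the BM. There were 3 libraries of *Ncr1cre Myc* wt/wt mice, called control here, and 3 of *Ncr1cre Myc* fl/fl mice, called Myc-deficient here, each with the replicate numbers 1, 2 and 4. Both genotypes express Cre recombinase from the Ncr1 locus and were backcrossed to C57BL/6. They differ in the Myc alleles, which are loxP-flanked in *Ncr1cre Myc* fl/fl mice and are deleted in cells that have begun to express NKp46, the product of Ncr1. Ncr1 is switched on early in NK cell development, so that cells of the sorted stage can have lost Myc only recently. The mice of the study were matched for age and sex, the age behind each library is not given, and the labels do not say whether each library came from a separate mouse, so the p-values measure the spread between these libraries.

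The small subunit binds the mRNA, selects the start codon and reads each codon against the tRNA, while the large subunit joins the amino acids. Its proteins assemble on the small-subunit rRNA in the nucleolus, most of them in equal numbers of copies, and the mature particle is divided into a head, which moves along the mRNA, and a body with a platform. The mRNAs of these proteins typically begin with a C and a run of pyrimidines, the terminal oligopyrimidine tract, through which mTOR adjusts their translation. Myc is a transcription factor that binds the sequence CACGTG, and genes of ribosome production are among its best known targets. Lymphocytes increase ribosome production when they begin to divide.

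Library totals were 54550907 to 64962491 estimated counts in 5 libraries and 8101219 in the first control library, which is the shallowest by a wide margin. Myc itself was at 201, 183 and 164 CPM in the control libraries and at 61.5, 64.6 and 76.5 CPM in the Myc-deficient libraries (log2 fold change −1.44 ± 0.15 (SE), adjusted p = 0.00189), and these sums do not separate the deleted exons from the rest. CPM of genes are counts scaled to the library size after TMM normalization, while CPM of single transcripts and of transcript classes are scaled to the library totals alone. All 13 NK cell markers were measured. Their summed level, scaled to the library totals alone, was 14500 to 15900 CPM in control cells and 17800 to 19100 CPM in Myc-deficient cells. Their median log2 fold change was 0.07, with 4 of 13 negative, from −0.64 for Gzma to 1.73 for Gzmb. None passed the threshold in edgeR or limma-trend, 2 were lower and 3 higher at an unadjusted p below 0.05 in edgeR, and DESeq2 called 2 lower and 0 higher. Markers of several other cell types had higher sums in Myc-deficient libraries, again scaled to the library totals alone. The basophil and mast cell list summed to 14.3 to 18.9 against 121 to 335 CPM with 8 of 8 genes higher past the threshold, the neutrophil and myeloid progenitor list to 81.1 to 141 against 539 to 889 CPM with 4 of 8 tested genes higher, the monocyte list to 1670 to 1830 against 2060 to 2370 CPM with 3 of 5 higher, the erythroid list to 44.0 to 281 against 523 to 1140 CPM with 1 of 6 higher and the plasmacytoid dendritic cell list to 64.9 to 88.2 against 109 to 116 CPM with 1 of 4 higher. No gene of the B cell list, which summed to 4.28 to 8.71 against 11.5 to 15.03 CPM, or of the T cell list, at 241 to 513 against 277 to 355 CPM, passed the threshold in edgeR, DESeq2 or limma-trend, and 2 B cell genes and 2 T cell genes were higher and 1 T cell gene lower at an unadjusted p below 0.05 in edgeR. Over all genes tested, 1574 of 15474 were lower and 1913 higher at that unadjusted p. At an adjusted p below 0.05 in edgeR, 6 of 6 erythroid, 6 of 8 neutrophil and 4 of 5 monocyte genes were higher. This held for 689 of all genes tested. In these lists DESeq2 called 4, 7 and 4 genes higher past the threshold, against 645 of all genes. No gene of the marker lists was at 0 in every library of a genotype. The part of these cells in the differences below was not tested, and in bulk RNA a change in the makeup of the sorted cells and a change of RNA per cell cannot be told apart.

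Start sites and promoters of the genes are shown first, since the family is known for the pyrimidine run and CACGTG is the sequence that Myc binds. RefSeq promoter windows of GRCm38.p6, with 250 bases before and 50 bases after a start, were found for 25 of the 33 genes. In 7 of these 25 genes (28%) the annotated start was a C followed by at least 4 more C or T bases, against 3.01% of the 27025 genes with a window. The 30 bases from 10 before to 20 after the start are printed 5′ to 3′ on the strand of the gene, and the capitals mark the pyrimidine run that begins at the start.
Fau (chr19:6057937-6057966, plus strand): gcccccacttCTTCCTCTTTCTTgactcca
Rps10 (chr17:27635225-27635254, minus strand): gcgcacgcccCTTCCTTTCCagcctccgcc
Rps15a (chr7:118116128-118116157, minus strand): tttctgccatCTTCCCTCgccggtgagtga
Rps18 (chr17:33955646-33955675, minus strand): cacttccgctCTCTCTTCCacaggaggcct
Rps21 (chr2:180257369-180257398, plus strand): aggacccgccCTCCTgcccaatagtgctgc
Rps27 (chr3:90213629-90213658, minus strand): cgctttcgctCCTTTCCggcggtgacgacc
Rps6 (chr4:86857348-86857377, minus strand): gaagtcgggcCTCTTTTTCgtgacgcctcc
The run was 13 bases long in Fau, 10 in Rps10 and 5 in Rps21. In the windows of the other 18 genes no such run began at the base annotated as the start, which depends on where RefSeq places the start.

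The sequence CACGTG, which reads the same on both strands, was present in the promoter windows of 1 of the 25 genes, Rps19, and in those of 8.09% of all genes with a window. Rps19 has 3 annotated starts, and the match lies 120 bases before one of them. It is printed with its 12 flanking bases on each side, and the capitals mark CACGTG.
Rps19 (chr7:24884781-24884810, plus strand): tggagccgcggcCACGTGcgagcggcaggc
Absence of these letters from a window of this length says nothing about binding elsewhere.

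The genotype comparison asked how the level of each small-subunit gene differed in CD27SP NK cells with deleted Myc. Over all genes tested, 7512 of 15474 had a negative log2 fold change in Myc-deficient cells. All 33 genes of the family passed the filter on low counts. All 33 had a negative log2 fold change, from −1.53 for Rps12 to −0.40 for Rps25. Of these, 22 were lower past the threshold, an adjusted p below 0.01 and a log2 fold change of at least 0.5 in edgeR, as were 0.872% of the 15474 genes tested, and none of the 33 was higher in edgeR, DESeq2 or limma-trend or at an unadjusted p below 0.05, against 1.28% of all genes higher past the threshold in edgeR. The median log2 fold change was −0.95, against 0.01 over all genes tested, and the median gene kept 51.4% of its mean level in control cells. In 30 of the 33 genes the highest Myc-deficient library lay under the lowest control library, which held for 15.1% of all genes. At an adjusted p below 0.05 with no limit on the fold change, 29 of the 33 genes were lower, against 3.38% of all genes, and at the first threshold DESeq2 called 30 of them, against 3.54% of all genes. At that threshold limma-trend called 17, against 0.64% of all genes, and so did the largest adjusted p of edgeR, DESeq2 and limma-trend.

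**Figure D1:**
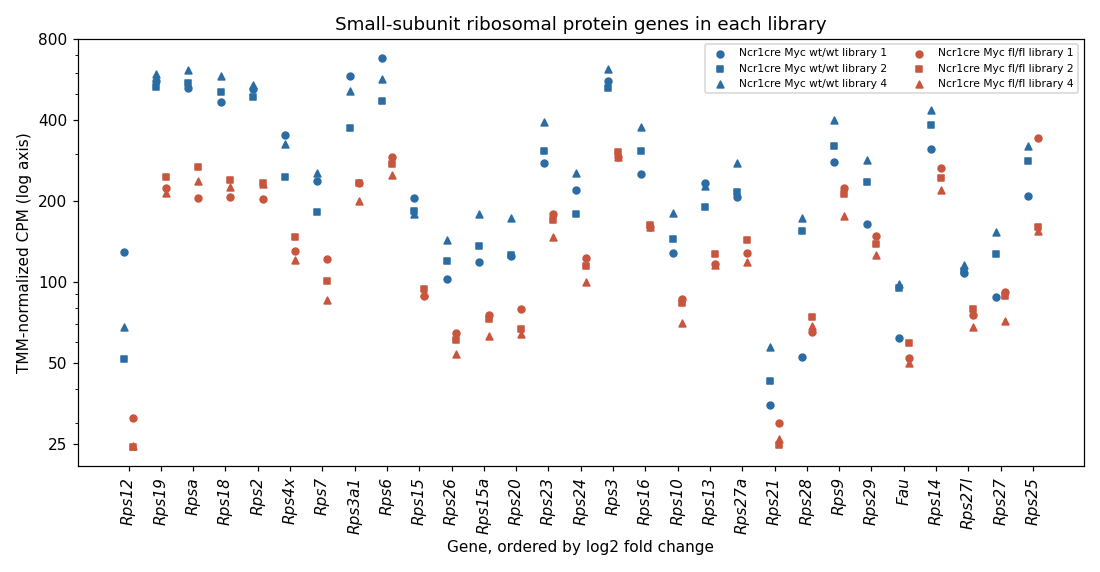
TMM-normalized CPM on a log axis for 29 of the 33 genes, ordered by log2 fold change, with 1 point per library. The points of the 3 Myc-deficient libraries lie below those of the 3 control libraries in 26 of these genes, and the exceptions are Rps25, Rps27 and Rps28.

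The count of calls depended on the libraries and the scaling, while the median stayed between −0.81 and −1.04. Without replicate 1, 2 or 4 in both genotypes, 3, 13 and 10 genes passed the threshold, with medians of −1.02, −1.04 and −0.81. The calls over all genes tested changed too, from 135 lower to 10, 47 and 114. The fit reported takes the replicate number as a block. In a fit without the replicate block, 23 of the 33 genes and 184 of all genes were lower with all libraries, and 25 and 130 without the shallow first control library. With the authors' effective lengths as offsets 1 gene passed of 8 in all (median −0.99), with library size as the only scaling 9 of 25 (median −0.94), and with coding transcripts alone 11 of 51 (median −0.96).

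**Figure D2:**
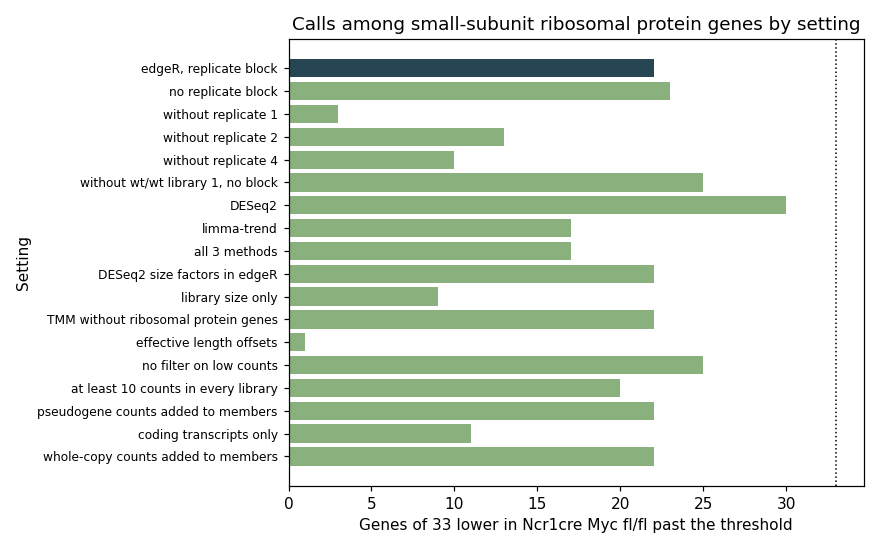
Number of the 33 genes lower in Myc-deficient cells past the threshold, with 1 bar per setting, the dark bar for the fit reported here and a dotted line at 33. The bars run from 1 with effective length offsets to 30 with DESeq2.

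As a share of all estimated counts, the 33 genes took 0.870%, 0.921% and 1.08% in control libraries 1, 2 and 4, and 0.513%, 0.505% and 0.452% in the Myc-deficient libraries of the same numbers. The 95% Wilson intervals, which cover counting error only, were 0.863% to 0.876% in the shallowest library and no wider in the others. The groups did not overlap, and the mean share was 0.957% ± 0.109 (SD, n = 3) against 0.490% ± 0.0334, so that 51.2% of the control share was left. Counted as TPM, which corrects for transcript length, the share was 2.71% ± 0.324 against 1.51% ± 0.111. The ratio of small- to large-subunit counts was 0.690, 0.716 and 0.726 in control cells and 0.692, 0.693 and 0.693 in Myc-deficient cells. The groups overlapped through the shallow first control library.

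The genes differed in level among themselves. In control cells their mean TPM spanned 9.19-fold, and in Myc-deficient cells 12.3-fold. Rps19 had the highest mean TPM in control cells (2446 ± 96.8 TPM, SD, n = 3), and Rps18 (1746 ± 269) was also among the highest. Rps12 (266 ± 112) and Rps21 (275 ± 78.0) had the lowest, and Rps12-ps3, a copy of Rps12 described below, was at 156 ± 128 TPM. In Myc-deficient cells Rps19 (1036 ± 80.0 TPM) and Rps25 (969 ± 522) were among the highest, where the large SD of Rps25 came from 1 library. There Rps12 (89.5 ± 18.7 TPM) and Rps21 (176 ± 18.8) had the lowest, and Rps12-ps3 was at 92.1 ± 22 TPM. The lower end of both spans is Rps12 counted without this copy. Across the 33 genes the mean TPM of the genotypes had a Spearman rho of 0.96, and the log2 fold change had a rho of 0.01 with the mean TPM in control cells. These are descriptions across genes of the same libraries.

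Of the 14 proteins of the head, 9 had genes that were lower past the threshold, and the median log2 fold change of the 14 was −0.95. Rps19, which is needed for the maturation of the small-subunit rRNA and is the gene most often mutated in Diamond-Blackfan anaemia, was at 560, 530 and 591 CPM in control cells and at 224, 245 and 215 CPM in Myc-deficient cells. Its groups were far apart, and its log2 fold change was −1.30 ± 0.14 (SE, adjusted p = 0.00189). It was lower past the threshold in all 17 other fits as well, and it was the gene left with effective length offsets. Rps18, which forms contacts with the large subunit, was at 466, 510 and 584 against 207, 240 and 225 CPM, again without overlap (−1.21 ± 0.14, adjusted p = 0.00204). Rps15 and Rps16, whose tails reach the tRNA sites, had log2 fold changes of −1.05 and −0.94. Rps20 and Rps3, the latter at the entry of the mRNA, had log2 fold changes of −1.0 and −0.94. All 4 of these genes passed the threshold. Rps10 (−0.91, adjusted p = 0.0123) and Rps29 (−0.70, adjusted p = 0.053) did not pass, although their groups did not overlap.

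Rps12, a protein of the beak of the head, had the most negative log2 fold change (−1.53 ± 0.19, adjusted p = 0.0031). It was at 129, 51.5 and 67.7 CPM in control libraries 1, 2 and 4 and at 31.3, 24.4 and 24.6 CPM in Myc-deficient cells. The groups did not overlap, but the shallow first control library lay well above the other two, and in the fit without the replicate block the log2 fold change was −1.61 with it (adjusted p = 0.0102) and −1.17 without it (adjusted p = 0.00923). The same mRNA is present as an intronless copy, Rps12-ps3 (chr19:59322290-59322783, GRCm38), whose 494 bases are identical to an Rps12 transcript (Rps12, chr10:23785183-23787275), so that a read within these bases cannot be assigned to either gene from its sequence. The first 100 of the 399 coding bases, which Rps12-ps3 holds without a difference, are printed to show what such reads contain, from the GENCODE M21 transcript.
Rps12 and Rps12-ps3: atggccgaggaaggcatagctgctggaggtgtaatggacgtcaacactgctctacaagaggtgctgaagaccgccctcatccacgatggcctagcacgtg
Of the counts on both, 1.69% were given to Rps12-ps3 in control library 1 and between 32.4% and 51.2% in the other 5 libraries. The sum of both was 131, 103 and 124 CPM in control cells and 46.3, 49.95 and 46.1 CPM in Myc-deficient cells. The sum was more even within each group than Rps12 alone, and its log2 fold change was −1.32 ± 0.15 (adjusted p = 0.00193), both with annotated pseudogenes added to their genes and with whole copies added, the latter an alternative chosen after the data had been seen.

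Rps27a is made as a fusion of ubiquitin with a ribosomal protein and thus supplies both. It was at 207, 217 and 277 CPM in control cells and at 128, 143 and 119 CPM in Myc-deficient cells. The groups did not overlap, but the difference missed the threshold (−0.84 ± 0.16, adjusted p = 0.0131). Rps28, one of the smallest proteins of the particle, was at 52.6, 154 and 172 CPM against 65.0, 74.2 and 68.8 CPM. The first control library was the lowest of all 6, below every Myc-deficient library, and the others of its group were the highest (−0.72 ± 0.27, adjusted p = 0.143). In the fit without the replicate block, Rps28 was at −0.88 on the log2 scale with that library (adjusted p = 0.135) and at −1.25 without it (adjusted p = 0.00334).

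Rps25, a head protein known for its part in initiation at internal ribosome entry sites, stood apart through a Myc-deficient library. It was at 209, 281 and 322 CPM in control cells and at 344, 160 and 155 CPM in Myc-deficient libraries 1, 2 and 4. The first Myc-deficient library was the highest of all 6, while the other two were the lowest, and the log2 fold change was −0.40 ± 0.29 (adjusted p = 0.472). Without replicate 1 it was −0.93 (adjusted p = 0.0196). Among its coding transcripts, Rps25-204 was at 91.4, 145 and 163 CPM of all counts in control cells and at 213, 80.1 and 77.6 CPM in Myc-deficient cells. The transcript Rps25-205 was at 93.002, 85.3 and 104 against 72.5, 53.2 and 48.1 CPM, and Rps25-201 at 13.4, 53.7 and 56.0 against 60.1, 25.3 and 24.968 CPM. The first Myc-deficient library was thus the highest of all 6 in Rps25-204 and Rps25-201 and not in Rps25-205, whose groups did not overlap. No copy with at least 95% identity over 100 bases was found for Rps25 among the other transcripts of the tables.

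**Figure D3:**
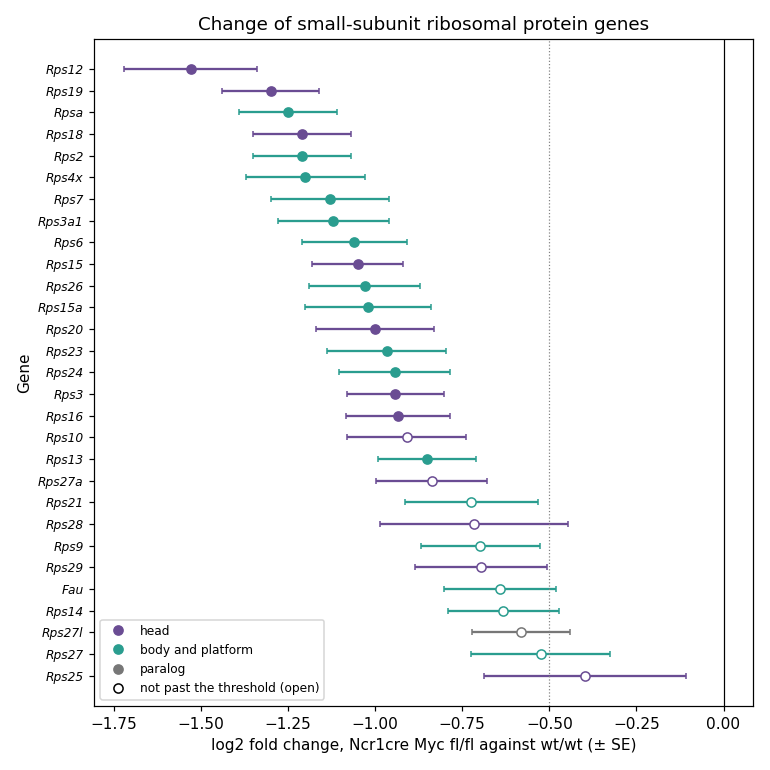
Log2 fold change of Myc-deficient against control cells with its SE for 29 of the 33 genes, coloured by the place of the protein in the particle, with filled points for genes past the threshold and a dotted line at the fold change limit of −0.5. All 29 points lie left of 0, from −1.53 for Rps12 to −0.40 for Rps25.

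Of the 18 proteins of the body and platform, 13 had genes that were lower past the threshold, and the median log2 fold change of the 18 was −0.99. Rpsa, also known as the laminin receptor precursor, was at 526, 550 and 612 CPM in control cells and at 205, 267 and 238 CPM in Myc-deficient cells. The groups were well separated (−1.25 ± 0.14, adjusted p = 0.00204). Between 73.7% and 79.2% of its counts in each library were on transcripts annotated as targets of nonsense-mediated decay, almost all on Rpsa-206, which was at 395, 433 and 476 against 153, 212 and 182 CPM of all counts. With coding transcripts alone its log2 fold change was −0.91, and it no longer passed (adjusted p = 0.0893). Its retained-intron transcripts summed to 58.0 CPM of all counts in control library 1 and to between 1.68 and 4.33 CPM in the other 5 libraries.

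Rps6, the protein phosphorylated by the S6 kinases downstream of mTOR and ERK, was at 680, 470 and 571 CPM in control cells and at 292, 274 and 251 CPM in Myc-deficient cells. There was no overlap (−1.06 ± 0.15, adjusted p = 0.00432). Rps2, near the entry of the mRNA channel, and Rps4x, whose gene is on the X chromosome, had log2 fold changes of −1.21 and −1.20. Rps7 and Rps3a1 followed with −1.13 and −1.12, then Rps26, at the exit of the mRNA channel, with −1.03, Rps15a with −1.02, Rps23, a protein of the decoding centre, with −0.97, Rps24 with −0.94 and Rps13 with −0.85. These 9 genes all passed the threshold. Rps21 (−0.72, adjusted p = 0.0481), Rps9 (−0.70, adjusted p = 0.0406) and Rps14 (−0.63, adjusted p = 0.0458), a gene lost in the human 5q deletion, did not pass, and their groups did not overlap.

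Fau is made as a fusion of a ubiquitin-like protein with a ribosomal protein. It was at 62.0, 95.2 and 98.5 CPM in control cells and at 52.4, 59.2 and 49.9 CPM in Myc-deficient cells. The groups did not overlap, with the first control library close to the highest Myc-deficient library, and the difference missed the threshold (−0.64 ± 0.16, adjusted p = 0.0433). The processed pseudogene Gm9843 is identical to Fau over its whole 402 bases and held between 41.6% and 55.7% of the counts on both. The sum of both was at 106, 174 and 198 against 114, 123 and 113 CPM, so that the groups overlapped through the first control library (−0.41 ± 0.18, adjusted p = 0.204).

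Rps27 and Rps27l are paralogs, each made from its own gene. Rps27 was at 87.8, 127 and 154 CPM in control cells and at 91.9, 89.0 and 71.6 CPM in Myc-deficient cells. The groups overlapped through the first control library (−0.53 ± 0.20, adjusted p = 0.156). Rps27l was at 108, 110 and 115 CPM against 75.3, 79.4 and 68.1 CPM, with no overlap and the least spread among the control libraries of all 33 genes, and it too missed the threshold (−0.58 ± 0.14, adjusted p = 0.031). By TPM, Rps27 was the more abundant of the pair in control cells (723 ± 166 against 418 ± 26.4) and in Myc-deficient cells (515 ± 75.9 against 297 ± 20.4).

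The coding sequences of the pair are shown because they decide whether reads can tell the genes apart. Both have 255 bases, from the GENCODE M21 transcripts, and the capitals in Rps27l mark the 61 bases that differ from Rps27, of which 53 are at the last position of a codon.
Rps27 (gene at chr3:90212522-90213651, GRCm38, minus strand): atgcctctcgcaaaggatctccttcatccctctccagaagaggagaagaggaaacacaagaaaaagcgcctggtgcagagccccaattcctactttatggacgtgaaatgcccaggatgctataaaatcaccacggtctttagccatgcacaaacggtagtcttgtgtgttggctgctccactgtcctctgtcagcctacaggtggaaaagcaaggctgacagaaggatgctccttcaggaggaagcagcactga
Rps27l (gene at chr9:66946086-66949516, GRCm38, plus strand): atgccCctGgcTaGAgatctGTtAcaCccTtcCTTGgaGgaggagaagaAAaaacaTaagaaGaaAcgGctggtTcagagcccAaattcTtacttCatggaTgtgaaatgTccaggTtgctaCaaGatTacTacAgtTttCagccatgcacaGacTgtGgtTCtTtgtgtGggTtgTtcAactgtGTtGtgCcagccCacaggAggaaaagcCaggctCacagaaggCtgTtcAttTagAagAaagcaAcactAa
At 76.1% identity, the differences are spread over the length of the sequence, and reads within it can be assigned to one gene. This is not so for Rps27rt (chr9:114982366-114982739), a gene annotated as protein coding whose symbol the rule does not take. Its coding sequence has 0 differences from that of Rps27, and it was at 124, 245 and 279 CPM in control cells and at 140, 160 and 134 CPM in Myc-deficient cells. Rps27 and Rps27rt together were at 212, 373 and 433 against 232, 249 and 205 CPM, and the groups overlapped through the first control library as they did for Rps27 alone (−0.51 ± 0.21, adjusted p = 0.175). Rps12-ps3, Gm9843 and Rps27rt were named, and the sums with Gm9843 and Rps27rt fitted, after their values had been seen.

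**Figure D4:**
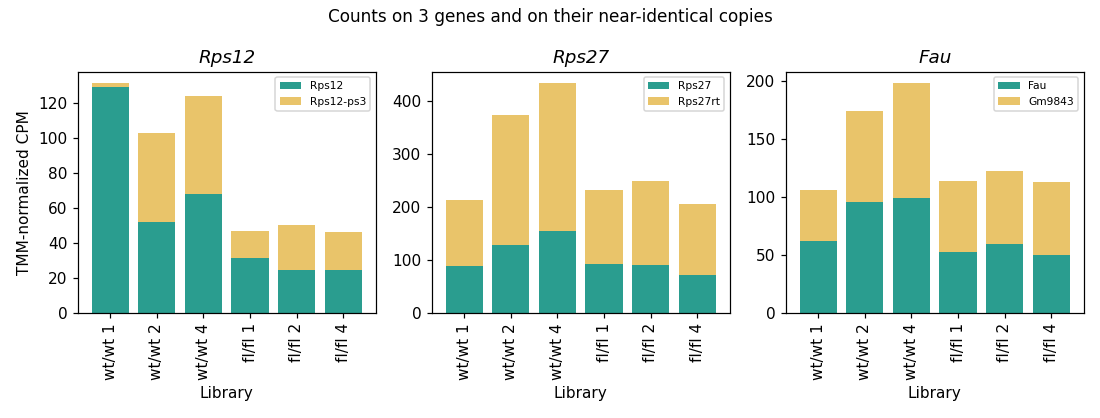
TMM-normalized CPM of Rps12, Rps27 and Fau (lower part of each bar) and of their near-identical copies (upper part) in each library, on linear axes from 0. The copy Rps12-ps3 holds 1.69% of the sum in control library 1 and at least 32.4% elsewhere, while the shares of Rps27rt and Gm9843 vary less.

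Of the 11 genes that missed the threshold, 5 had a mean transcript length under 500 bases, among them Rps25, Rps27 and Rps28, whose groups overlapped. When each Myc-deficient library was set against the control library of the same number, the median log2 ratio of the 33 genes was −0.83, −0.80 and −1.24 for numbers 1, 2 and 4. In the 7 genes with a mean transcript length under 500 bases the medians were −0.15, −0.79 and −1.15, and in the 26 longer genes −0.89, −0.83 and −1.31. The limit of 500 bases was chosen after the data had been seen. Thus the short genes differed from the long ones by far the most between the libraries numbered 1. Of the short genes 2 passed the threshold, Rps19 among them, and of the longer ones 20. The Spearman rho of the log2 ratio with length across the 33 genes was −0.50 for number 1, −0.14 for number 2 and −0.30 for number 4. Control library 1 was lower than the mean of the other two by a log2 ratio of −1.63 for Rps28, −0.68 for Rps27, −0.66 for Rps29 and −0.64 for Fau, and higher by 1.11 for Rps12. Whether depth or RNA quality of that library had a part in this was not tested.

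**Figure D5:**
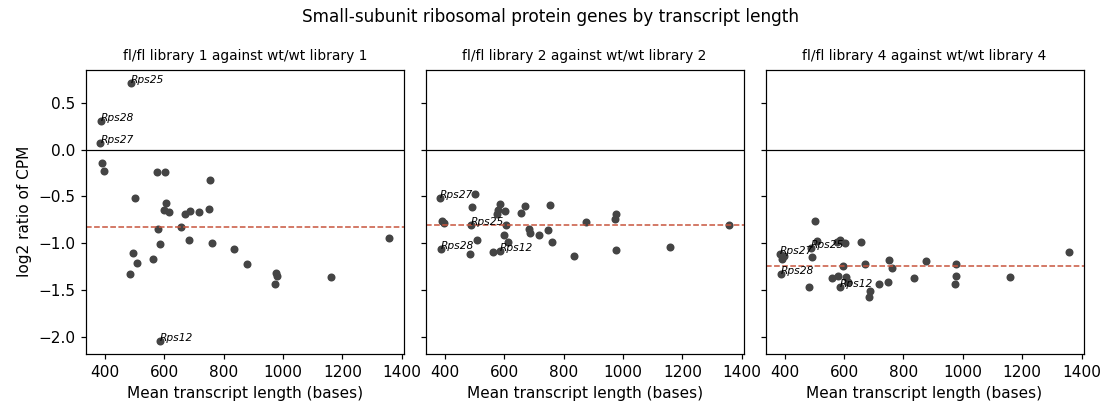
Log2 ratio of CPM between the Myc-deficient and control libraries of the same number against the mean transcript length in control cells, with 1 point per gene, a solid line at 0 and a dashed line at the median of the 33 genes. Rps25, Rps28 and Rps27 lie above 0 for number 1, and none of the 33 genes does for numbers 2 and 4.

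The genes of the 10 small-subunit proteins on the list for Diamond-Blackfan anaemia, in which red cell precursors fail to develop, had a median log2 fold change of −0.95, as did all 33. Of them, 6 were lower past the threshold, among them Rps7, Rps15a, Rps19, Rps24 and Rps26, and Rps10, Rps27, Rps28 and Rps29 were not. Of the 25 genes with a promoter window, 3 of the 7 with the pyrimidine run at the annotated start were lower past the threshold (Rps18, Rps6 and Rps15a, median of the 7 −0.91), and 14 of the 18 without it (median −0.998).

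Coding transcripts held between 80.1% and 84.3% of the counts of the 33 genes in each library, and retained-intron transcripts between 7.63% and 9.25%. Here too CPM are scaled to the library totals alone. Both kinds were lower in Myc-deficient cells to a like extent: coding transcripts summed to 7798 ± 953 CPM (SD, n = 3) against 4029 ± 335 CPM, which left 51.7%, and retained-intron transcripts to 790 ± 70.7 CPM against 411 ± 22.6 CPM, which left 52.0%. In Rps24 they differed. Its coding transcripts were at 200, 168 and 234 CPM against 101, 99.1 and 79.3 CPM, while its retained-intron transcript Rps24-212 was at 8.25, 14.3 and 19.0 CPM against 21.8, 15.2 and 18.4 CPM. The groups overlapped for Rps24-212, and its share of the counts of Rps24 was 3.96%, 7.77% and 7.45% in control cells and 17.5%, 13.2% and 18.7% in Myc-deficient cells, without overlap. In Rps19 retained-intron transcripts were lower along with the coding ones, at 144, 97.0 and 110 CPM against 37.5, 47.5 and 38.0 CPM. No test across transcripts was run.

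Of the other genes around the small subunit, Rack1, a scaffold protein bound to its head, was at 381, 391 and 434 CPM in control cells and at 181, 199 and 202 CPM in Myc-deficient cells, with no overlap (−1.05 ± 0.13, adjusted p = 0.00314). Among 55 factors that assemble the small subunit, 2 (3.64%) were lower past the threshold and 0 higher. This compares with 22 of the 33 genes of its proteins and 0.872% of all genes tested. Of the 55, 52 had a negative log2 fold change, with a median of −0.35, against 7512 of the 15474 genes tested. At an unadjusted p below 0.05 in edgeR, 29 of the 55 were lower, against 1574 of all genes. In 29 of the 55 all Myc-deficient libraries lay under all control libraries, against 15.1% of all genes. The 2 past the threshold were Nop58, a core protein of the snoRNPs that guide rRNA methylation (−1.29, adjusted p = 0.00204), and Tsr1, which sits on the late precursor of the subunit (−1.08, adjusted p = 0.00995). The next by adjusted p, Rcl1, which acts in the early processing of the rRNA precursor, had a log2 fold change of −0.88 (adjusted p = 0.0126). The number for these factors was 8 in DESeq2 and at an adjusted p below 0.05, 0 without replicate 1, and 1 or 2 without replicates 2 and 4.

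None of the 5 kinases that can phosphorylate Rps6 passed the threshold in edgeR or limma-trend, while DESeq2 called 1 lower, and at an unadjusted p below 0.05 in edgeR 1 was lower and 1 higher. Rps6ka3 (−0.96, adjusted p = 0.0132), Rps6ka2 (1.37, adjusted p = 0.219) and Rps6ka1 (0.29, adjusted p = 0.254) had the smallest adjusted p, and only 1 of the 5, Rps6ka3, had an adjusted p below 0.05. The large subunit was the group most like the small one: 25 of its 50 tested genes were lower past the threshold and 0 higher, with a median of −0.89, and Rpl12 (−1.28), Rpl10a (−1.35) and Rpl17 (−1.09) had the smallest adjusted p. The difference between the subunits was not tested. None of the 29 proteins of the mitochondrial small subunit had a gene past the threshold in edgeR or limma-trend. DESeq2 called 2 of the 29 lower, against 3.54% of all genes. At an unadjusted p below 0.05 in edgeR, 11 of the 29 were lower, against 1574 of the 15474 genes tested. All 29 had a negative log2 fold change, with a median of −0.31, against 7512 of all genes tested. Mrps28 (−0.86, adjusted p = 0.0225) and Mrps18b (−0.65, adjusted p = 0.0458) had an adjusted p below 0.05, and Mrps10 followed (−0.53, adjusted p = 0.0791).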

How the data were processed

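RNA was sequenced single end from polyA-selected SMART-Seq libraries of 6 samples. For each transcript the authors deposited an estimated count, which is not normalized, and a TPM value, with an effective length. The methods and labels name Salmon and GRCh38, whereas the table columns are those of kallisto and the identifiers are those of mouse. Of 100583 transcripts, 100239 were found in GENCODE M21, and their estimated counts were summed by gene symbol and rounded. The unmatched rest held 0.129% to 0.169% of the counts. Genes were filtered with filterByExpr (15474 kept), normalized by TMM and tested with edgeR 4.0.16 (quasi-likelihood, replicate number as block, since the study calls its analyses paired) in R 4.3.3, with Benjamini-Hochberg adjustment over all genes, a limit of 0.01 and a log2 fold change of at least 0.5. Fold changes refer to *Ncr1cre Myc* fl/fl against wt/wt. Their SE was derived from the edgeR test, as the absolute log2 fold change divided by the square root of the F statistic. DESeq2 1.42.0, limma-trend 3.58.1, other scalings, filters and counting rules, and leaving out libraries were alternatives. Replicates of a genotype differed by more than counting noise (chi-square per degree of freedom 39.2 to 99.0). Near-identical copies were sought with at least 95% identity over 100 bases. Start windows and motifs came from RefSeq.

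Every gene of the family is named except 4, whose own values are not reported here but which enter the counts and medians. Values in all libraries are given for the 3 lowest and 3 highest log2 fold changes, the 3 highest TPM, the paralogs, Rpsa, Fau, Rps27a, Rps6 and Rps19, and the 3 largest adjusted p, and outside the family Myc, Rack1 and the 3 smallest adjusted p of each list are named. The family, the lists and the rules were chosen with earlier results of these data known. The tests were tried on simulated data. No columns of other samples were present.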

Additional observations from a re-analysis of the deposited data

How the results depend on the processing

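The median log2 fold change of the 33 genes kept its sign and moved by less than the SD of the median log2 ratios of the 3 replicate numbers (0.247) in every setting run, from −0.81 to −1.04 when each replicate was left out. The number of genes lower past the threshold was 22, and it ranged from 3 to 13 when each replicate was left out. It was 9 with library size only, 1 with effective length offsets and 11 with coding transcripts only, where the lower calls over all genes fell from 135 to 25, 8 and 51, and it was 17 to 30 in the other settings. Adding the counts of pseudogenes, or of whole copies (added after the data had been seen), gave 22. For the 55 assembly factors (2) the number ranged from 0 to 2 with each replicate left out, and was 4 without the replicate block, 8 in DESeq2, 1 in limma-trend, 1 by the largest adjusted p of 3 methods, 1 with library size only, 1 with effective length offsets, 1 with coding transcripts only and 8 at an adjusted p below 0.05. For the large subunit (25) it ranged from 2 to 12 with each replicate left out, and was 42 in DESeq2, 2 with library size only, 0 with effective length offsets, 12 with coding transcripts only and 43 at an adjusted p below 0.05. The causes of these shifts were not tested, beyond the smaller number of libraries in those that leave some out. Deviations of libraries with the same number correlated at −0.01, −0.02 and 0.05, below 0.1, and pairing by number was not shown. With no replicate block, 23 of the 33 genes passed, 21 of them shared with the blocked fit, with Rps10 and Rps27a gained and Rps12 (adjusted p = 0.0102) lost, and the median was −0.96. No gene of the 33 changed sign in any setting. The depth of the first control library limits what can be said of weakly expressed genes.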
